A study of Mus musculus with 2 samples.

Results

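The cells described here are 62 barcodes of Arg1-positive, Cxcl9-negative macrophages and monocytes from mouse B16F10 melanoma. They are 13.5% (95% exact binomial interval 10.5 to 16.9) of the 460 gated macrophages and 0.548% (0.42 to 0.702) of the 11318 barcodes that passed quality limits. A barcode was a gated macrophage when it had at least 500 genes, at most 25% mitochondrial counts and 5 or more counts of at least 3 of 7 macrophage genes (Csf1r, C1qa, C1qb, C1qc, Adgre1, Fcgr1 and Lyz2). It also had to have fewer than 5 counts of each of 5 T cell genes (Cd8a, Cd8b1, Cd4, Foxp3 and Cd3e) and fewer than 10 counts of the melanoma gene Mlana. Members were then chosen by their own measured counts of Arg1, at least 5, and of Cxcl9, fewer than 5, so neither gene is a finding here. The remaining gated macrophages were 177 Cxcl9-positive, Arg1-negative cells (38.5%), 23 cells with both genes (5.0%) and 198 cells with neither (43.0%). All intervals are of this kind. Beside a count of 0 the limit given is 3 cells of the total, a simpler bound that lies under the exact binomial one. Both cover counting error only.

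B16F10 is a melanoma line of C57BL/6 origin, and the tumours were grown under the skin of mice for 14 days from 1000000 transplanted cells. Cells were taken from the tumours over Percoll and then by positive selection on CD3, so every macrophage in the data came through a selection aimed at T cells. Wild-type and Nr4a knockout cells were pooled into 1 library after hashtag labelling, and the labels name 6 hashtags but not the genotype of any of them. The whole transcriptome was read with the BD Rhapsody and TAS-Seq methods. With 1 library and no genotype per hashtag there was no test between groups, and hashtags are given as separate samples of unknown genotype.

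Arginase 1, the product of Arg1, splits arginine into ornithine and urea, and its expression in myeloid cells of tumours is a widely used sign of a suppressive or repair-like state. CXCL9 is a chemokine that macrophages make under interferon-gamma and that draws CXCR3-bearing T cells. Monocytes enter tumours from the blood through the receptor CCR2, and with time they lose monocyte genes and gain complement C1q and scavenger receptor genes.

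Members had a median of 46677.5 counts (10897 to 150650) and 3051 detected genes, against 51677 counts in Cxcl9-positive macrophages and 40996.5 in cells with neither gene. The 1453 barcodes with at least 3 macrophage genes were 12.8% of those passing quality limits, and 969 of them (66.7%) also held a T cell gene and were left out. Among the 993 barcodes left out for T cell genes or Mlana, 81 (8.16%, 6.53 to 10) had Arg1 without Cxcl9. Of the 12016 barcodes with mRNA counts, 11808 also occurred in the hashtag table, and 58 of the 62 members (93.5%) could be given 1 hashtag.

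The genes of the rule are given as a description. Arg1 (chr10:24915221-24927484, minus strand, GRCm38) had 6 counts in the lowest member, 97.5 in the median member and 1626 in the highest. Few cells lay near the limits. There were 3 members with 6 to 8 Arg1 counts (69.2 to 277 CPM, counts scaled to a sum of 1000000), 11 otherwise matching cells just outside with 1 to 4 counts (17.6 to 192 CPM), and 187 with none. No cell with Arg1 had 5 to 9 Cxcl9 counts, and 6 members had 1 to 4. Arg1 reached 5 counts in 9 of the T cell-gated barcodes (0.212%) and in 1 melanoma-gated barcode (0.0965%), at median depths of 30014 and 147739.5 counts.

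The 5 markers that go with this label were not all present in all members. Lyz2, the macrophage lysozyme and a gene of the gate, was present in 59 of 62 (95.2%). Fn1, fibronectin, was present in 39 (62.9%, 49.7 to 74.8), and Chil3, the secreted chitinase-like protein Ym1, in 20 (32.3%, 20.9 to 45.3). Mmp12, the macrophage elastase, was present in only 7 (11.3%, 4.66 to 21.9), and 1 member held 43.2% of its counts. Counting Arg1, 3 members had 1 of the 5 markers, 15 had 2, 22 had 3, 22 had 4 and none had all 5. Of myeloid genes that the rule did not use, Itgam was present in 96.8% of members and Ccr2 in 64.5%. The label holds less well for Mmp12 and Chil3, which most members lacked.

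Markers of other cell types differed in how many members had them. None of 7 dendritic cell markers (Flt3, Zbtb46, Xcr1, Clec9a, Cd209a, Ccr7 and Fscn1) reached 5 counts in any member, which allows a share of up to 4.84%. Their summed level was 4.32 CPM in members, 197 in Cxcl9-positive macrophages and 66.0 in cells with neither gene. Of 8 T cell markers, 4 members had at least 1 and 1 member had at least 3, though the rule itself kept Cd3e under 5 counts. Of 5 melanoma markers, 25 members had at least 1 and 3 members had at least 3, at 182 CPM in sum against 166 in Cxcl9-positive macrophages. Of 6 neutrophil markers, 18 members had at least 1, 3 had at least 2 and none had 3, with Retnlg and Ly6g in no member, Csf3r in 10 and Cxcr2 in 7. Of 4 plasmacytoid dendritic cell markers, 41 members had at least 1 (389 CPM in sum, 485 in Cxcl9-positive cells and 350 in cells with neither gene), which were Bst2 in 32 members and Tcf4 in 23, while Siglech and Ccr9 were in none. Of 5 nonclassical monocyte markers, 44 members had at least 1 and 1 had at least 3 (520, 363 and 574 CPM in sum). The part of such cells in the results was not tested.

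The share of members in each hashtag is a description, since the rule set it. It was 19.6% (12.2 to 28.9) of 97 gated macrophages with hashtag A0301, 22.2% (6.41 to 47.6) of 18 with A0302, 4.04% (1.11 to 10) of 99 with A0303, 8.33% (1.03 to 27.0) of 24 with A0304, 15.9% (7.88 to 27.3) of 63 with A0305 and 24.7% (15.6 to 35.8) of 77 with A0306. The median over the 6 hashtags was 17.8%. The lowest share was that of A0303 and the highest that of A0306. Cxcl9-positive macrophages were 62.6% (52.3 to 72.1) of the A0303 cells and 50% of the A0304 cells, and between 19.0% and 28.6% in the other 4 hashtags. Since the genotypes of the hashtags are not given, sample and genotype cannot be told apart here.

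**Figure D1:**
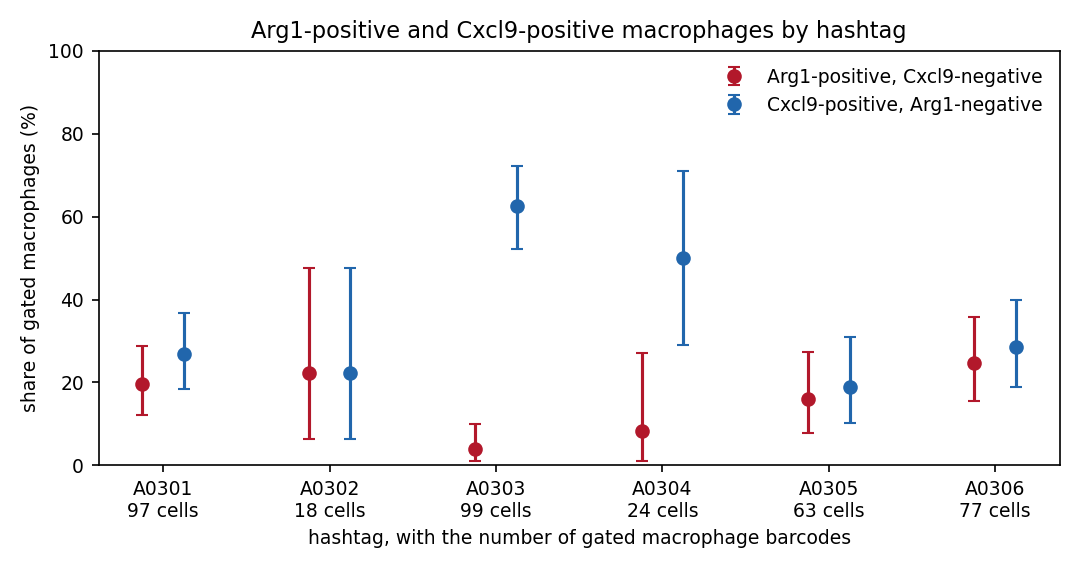
Share of gated macrophages (%, vertical axis) that were Arg1-positive and Cxcl9-negative (red) or Cxcl9-positive and Arg1-negative (blue) in each of 6 hashtags, with 95% exact binomial intervals. Members ranged from 4.04% with A0303 to 24.7% with A0306, and A0303 had the highest Cxcl9-positive share at 62.6%.

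The composition of the members also varied with the hashtag. Fn1 was present in 16 of 19 A0306 members, 11 of 19 A0301 members and 6 of 10 A0305 members. It was present in 1 each of the 4 A0302, 4 A0303 and 2 A0304 members, numbers too small to rank these hashtags. Spp1, the secreted matrix protein osteopontin, was present in 14 of 19 A0306, 9 of 19 A0301 and 6 of 10 A0305 members. It was present in 2 of 4 A0302 members and in none of the A0303 and A0304 members. The Arg1 level was lowest in A0306, at 2130 CPM, and was 3050 in A0301, 4370 in A0305 and 3200 to 3720 in the other 3.

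Members were set against the 177 Cxcl9-positive macrophages by summing the counts of each set of cells, scaling to CPM and taking the log2 ratio after adding 5 counts to each sum. A gene was called at a 2-fold difference, among 7566 genes with 5 counts in at least 5% of gated macrophages, leaving out the genes of the gate. Of these, 1348 (17.8%) were called, 512 (6.77%) higher and 836 (11.0%) lower in members, and the median over all examined genes was -0.07. The same sign in each of the 3 hashtags with at least 10 cells in both sets (A0301, A0305 and A0306) was found for 10.3% of the examined genes as called, 4.07% higher and 6.23% lower. To compare shares at equal depth, each cell was also thinned to 10000 counts, which left out no member, 13 Cxcl9-positive cells and 17 cells with neither gene. A gene was present in a thinned cell at 1 count, not 5, so thinned shares can lie above the unthinned ones. Thinned, Fn1 was present in 64.5% of members and 8.54% of Cxcl9-positive cells, and H2-Aa in 58.1% and 96.3%, beside unthinned shares of 62.9% and 9.04% for Fn1 and of 50% and 95.5% for H2-Aa. The range over those 3 hashtags is given beside the pooled value and need not contain it, since the pooled sums also hold the other hashtags and the cells without a call.

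Genes of the extracellular matrix and its proteases were higher in members. Of 16 examined genes of this list, 11 were higher, all with the same sign in the 3 hashtags, and none was lower, with a median log2 ratio of 2.03. Fn1 (chr1:71585520-71653200, minus strand) was present in 62.9% of members, 24.2% of cells with neither gene, 17.4% of cells with both and 9.04% of Cxcl9-positive cells. Its level was 0 in 18 members, 723 CPM in the median member and 16300 in the highest. In sum it was 2840 CPM in members and 84.1 in Cxcl9-positive cells, a log2 ratio of 5.07 (4.70 to 5.16 over 3 hashtags). Melanoma cells make fibronectin too: Fn1 was present in 33.9% of melanoma-gated barcodes, at 49.9 CPM, and in 0.236% of T cell-gated barcodes. Spp1 (chr5:104435118-104441050, plus strand) was present in 54.8% of members and 11.9% of Cxcl9-positive cells, with a median of 451 and a maximum of 26500 CPM. Its log2 ratio was 4.51 (2.73 to 6.15), and it was present in 13% of T cell-gated barcodes at 225 CPM.

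Other genes of proteases and matrix proteins pointed the same way. Vcan, the proteoglycan versican that monocytes carry, was present in 27.4% of members and 5.65% of Cxcl9-positive cells (log2 ratio 4.13, 1.29 to 5.66). Thbs1, the matrix glycoprotein thrombospondin 1, was present in 59.7% and 22.6% (2.75, 1.82 to 2.90), and Ecm1 in 67.7% and 18.6% (2.56). The collagenase gene Mmp13 was present in 17.7% and 6.21% (3.95, 2.01 to 2.91), and Mmp19 in 41.9% and 19.2% (2.06). For Mmp12 the ratio was 4.09 in the pooled sums, 3.28 without the member that held most of its counts, and only 1.40 to 2.31 in the 3 hashtags.

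Monocyte genes were mostly higher in members, though not the defining surface gene. Of 16 examined classical monocyte genes, 10 were higher and 2 lower, with a median of 1.60. F13a1, the transglutaminase subunit of coagulation factor XIII made by monocytes, was present in 82.3% of members and 10.2% of Cxcl9-positive cells (1210 against 44.0 CPM, log2 ratio 4.76, 2.19 to 4.78). Itgam, the integrin CD11b, gave 1.5 (0.47 to 1.71), and the calcium-binding genes S100a4 and S100a6 gave 2.26 and 1.71 in the pooled sums. Ccr2, the monocyte chemokine receptor, gave 1.39 in the pooled sums, but 0.95 without A0303 and values of both signs in the 3 hashtags. Ly6c2, which marks classical monocytes and also many T cells (57.8% of T cell-gated barcodes), was present in 21.0% of members and 26.0% of Cxcl9-positive cells (0.40). Plac8 was lower (-1.20).

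Chemokine genes divided into those higher in members and those linked to interferon. Of 16 examined, 9 were higher and 3 lower, with a median of 1.13. Ccl6 and Ccl9, which encode ligands of CCR1, were present in 90.3% and 80.6% of members against 52.5% and 33.3% of Cxcl9-positive cells (log2 ratios 3.31 and 3.60, each higher in all 3 hashtags). Pf4, platelet factor 4, was present in 61.3% against 22.0% (3.62, 3.28 to 6.80). Ccl24, an eosinophil-attracting chemokine made by alternatively activated macrophages, was present in 15 members (24.2%) and in 0.565% of Cxcl9-positive cells, at 192 against 1.44 CPM. Cxcl2, a neutrophil attractant, gave 1.80, and the monocyte attractant Ccl2 gave 1.34. The interferon-induced CXCR3 ligands Cxcl10 and Cxcl11 were lower (-2.41 and -2.27), as was Ccl5 (-2.21). Ccl8 was present in 17.7% of members and 42.9% of Cxcl9-positive cells but did not reach 2-fold (-0.59).

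**Figure D2:**
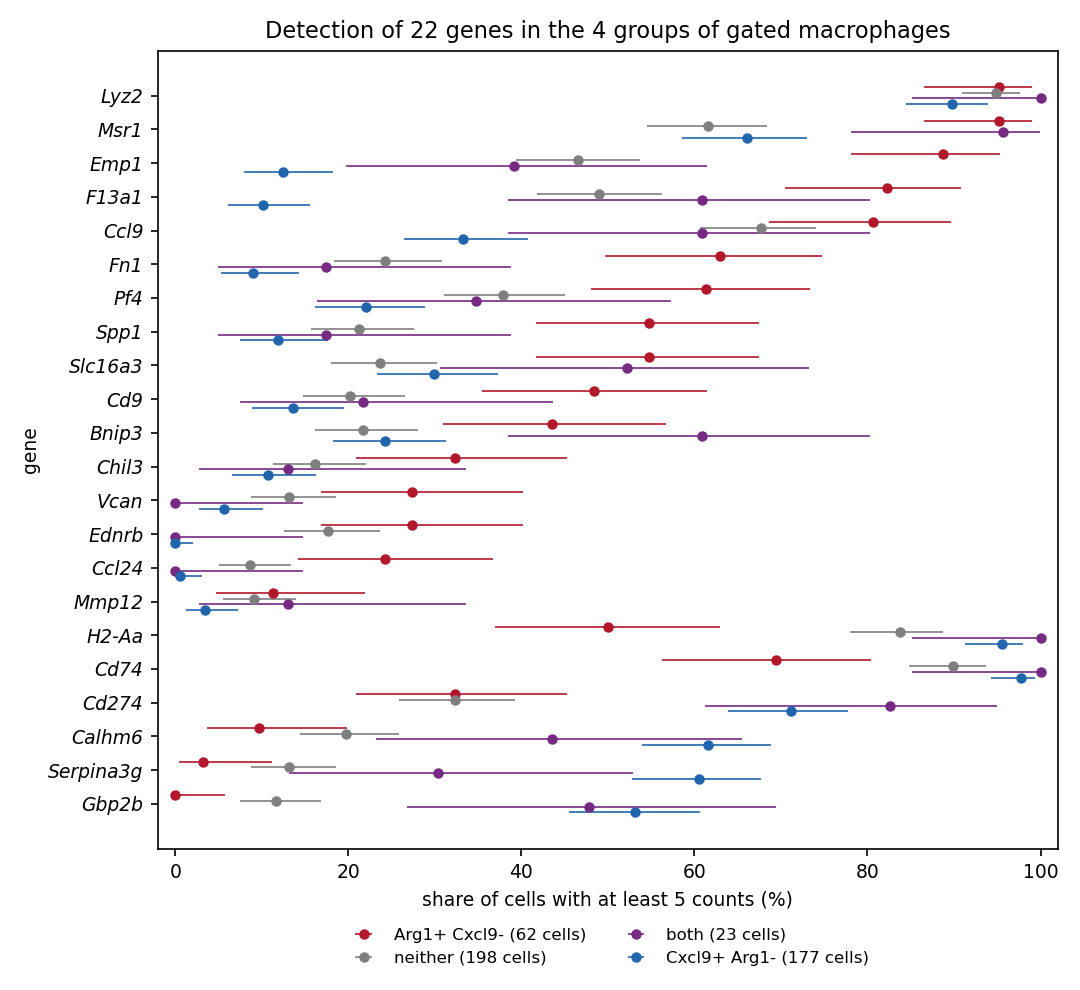
Share of cells with at least 5 counts (%, horizontal axis) for 22 genes in the 62 members (red), 198 cells with neither gene (grey), 23 cells with both (purple) and 177 Cxcl9-positive cells (blue), with 95% exact binomial intervals. Fn1 was present in 62.9% of members and 9.04% of Cxcl9-positive cells, and Serpina3g in 3.23% and 60.5%.

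Scavenger receptors and surface proteins followed. Of 12 examined genes of alternative activation and scavenging, 8 were higher and 1 lower, with a median of 1.25. Msr1, the class A scavenger receptor, was present in 95.2% of members, 66.1% of Cxcl9-positive cells and 61.6% of cells with neither gene (1.41 against Cxcl9-positive cells, 1.10 to 1.65). Cd36, which takes up oxidised lipids, gave 2.55 (2.1 to 3.07), the mannose receptor Mrc1 gave 1.36 (1.09 to 1.82) and the folate receptor Folr2 gave 2.34 (3.20 to 7.39). Chil3 gave 1.93 in the pooled sums, with values of both signs in the 3 hashtags (-0.35 to 1.79). Retnla, a hallmark of interleukin 4-driven activation, was present in only 3 members and was not among the examined genes. Emp1, a small membrane protein, was present in 88.7% of members and 12.4% of Cxcl9-positive cells (1100 against 109 CPM, 3.32, 1.79 to 4.56), and in 35.1% of melanoma-gated barcodes at 72.9 CPM.

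Ednrb, the endothelin B receptor, was present in 17 members (27.4%, 16.9 to 40.2) and in none of the 177 Cxcl9-positive cells, which allows a share of up to 1.69%. In sum it was 332 CPM in members and 0.34 in Cxcl9-positive cells, where only 4 counts were seen. It was present in 17.7% of cells with neither gene and in none of the 23 cells with both (up to 13%). Although Ednrb is known from the melanocyte lineage, none of 1036 melanoma-gated barcodes had 5 counts (up to 0.29%).

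Genes of low oxygen and glycolysis were shifted up as a list, mostly by less than 2-fold. Of 27 examined, 7 were higher and none lower, with a median of 0.68, and 24 of 27 lay above 0. The lactate exporter Slc16a3 was present in 54.8% of members and 29.9% of Cxcl9-positive cells (1.66, 0.94 to 2.00). Bnip3, a mitophagy receptor induced by low oxygen, gave 1.95 (1.14 to 3.21) and was present in 43.5% and 24.3%. Egln3, an oxygen-sensing hydroxylase, gave 3.57 (0.93 to 2.51) at 57.6 against 4.25 CPM. Vegfa, the vascular growth factor, gave 0.53 and was not called.

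Lipid, stress and inflammatory lists also had more higher than lower genes. For lipid handling 6 of 16 examined genes were higher and 1 lower, with a median of 0.75. Among them were the lipid droplet coat Plin2 (1.64, 1.69 to 2.65), the tetraspanin Cd9 (2.76, 1.65 to 2.17) and the lipid receptor Trem2 (1.14, but 0.92 without A0305). Ctsl, the cysteine protease cathepsin L, was higher at 3.05 (2.90 to 5.32) and was the only called gene of 14 examined in the cathepsin and lysosome list. For oxidative and metal stress 6 of 12 were higher and none lower, with a median of 0.95. Hmox1, haem oxygenase 1, gave 1.19 but 0.67 without the member holding the most counts and 0.76 without A0305. For inflammatory cytokines and receptors 10 of 16 were higher and 1 lower, with a median of 1.31. The C-type lectin Clec4d (3.10, 2.45 to 3.12) and the amplifying receptor Trem1 (2.44, 1.15 to 2.12) were higher, while Il1b gave 0.83 and Tnf 0.45 and were not called. Only 4 of those 10 had the same sign in the 3 hashtags.

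**Figure D3:**
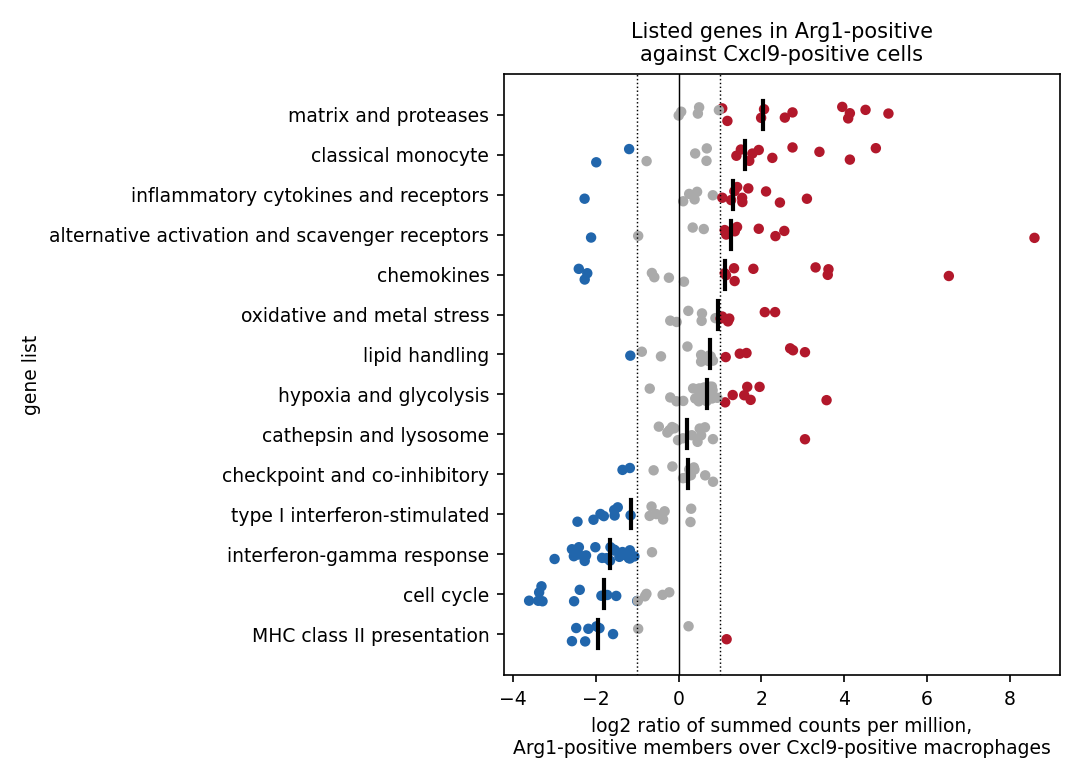
Log2 ratio of summed CPM in members over Cxcl9-positive macrophages (horizontal axis) for each examined gene of 14 lists, red at 2-fold or more higher, blue at 2-fold or more lower, grey between, with the list median as a black bar and dotted lines at 2-fold. The medians ran from 2.03 for matrix and proteases to -1.95 for MHC class II, and the points beyond 6 (Lyve1 and Ccl24) rest on very few counts in Cxcl9-positive cells.

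Interferon-gamma response genes were lower in members in nearly the whole list. Of 23 examined, 22 were lower and none higher, 20 of them with the same sign in the 3 hashtags, and the median was -1.65. Cxcl9, which the rule used, is itself a gene of this response, so the Cxcl9-positive cells were chosen for it in part. Socs1, which limits the signal, gave -3.00 (-3.50 to -2.05), and the guanylate-binding protein gene Gbp2 gave -1.20 (-5.68 to -2.29). Cd274, the checkpoint ligand PD-L1, was present in 32.3% and 71.2% (-1.18, -3.04 to -0.63) and lost its call without A0305 (-0.99) or A0306 (-0.75). Irf1 gave -0.64 and was the 1 examined gene not called.

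Outside the list the same contrast appeared in single genes. Gbp2b, a guanylate-binding protein (chr3:142594847-142619179, plus strand), reached 5 counts in no member (up to 4.84%), in 53.1% of Cxcl9-positive cells and in 47.8% of cells with both genes, at 3.75, 844 and 95.6 CPM in members, Cxcl9-positive cells and cells with neither. Serpina3g, a serine protease inhibitor, was present in 3.23% of members and 60.5% of Cxcl9-positive cells (-4.70, -5.32 to -4.01) and in 34.4% of T cell-gated barcodes. Calhm6, a channel subunit, was present in 9.68% and 61.6% (-3.81, -5.12 to -2.76). Klrk1, the receptor NKG2D, was at 5 counts in no member and in 32.2% of Cxcl9-positive cells, and Dnase1l3, a secreted DNase, in 1.61% and 41.8%. At least 2 of the 8 T cell markers were present in 8 of the 177 Cxcl9-positive cells and in 1 member. The part of such cells in the Klrk1 difference was not tested. Type I interferon-stimulated genes were lower for 8 of 15 examined and higher for none (median -1.16), but only 2 had the same sign in the 3 hashtags.

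Antigen presentation by MHC class II was lower in members. Of 10 examined genes, 7 were lower, all with the same sign in the 3 hashtags, and 1 was higher, with a median of -1.95. H2-Aa, a class II chain, was present in 50% of members, 95.5% of Cxcl9-positive cells, 83.8% of cells with neither gene and all 23 cells with both. In single members it was 0 in 20, 116 CPM in the median member and 9310 in the highest, and in sum 1460 CPM against 6980 (-2.26, -3.01 to -1.68). Cd74, the invariant chain, was present in 69.4% of members and 97.7% of Cxcl9-positive cells (-1.98, -2.55 to -1.38). Ciita, the master regulator of class II, gave -2.58 (-3.92 to -2.28). H2-Aa was present in 5.0% of T cell-gated and 50.6% of melanoma-gated barcodes. The dendritic cell markers were also lower in members, as given above, and Batf3, a dendritic cell transcription factor, gave -3.16 (-3.47 to -1.83); the part of such cells among the Cxcl9-positive cells in the class II difference was not tested, but 13 of the 177 had at least 2 of the 7 dendritic cell markers.

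Cell cycle genes were lower for 11 of 16 examined and higher for none (median -1.80), 5 of them with the same sign in the 3 hashtags. Mki67, the proliferation antigen, was present in 4 members (6.45%, 1.79 to 15.7) and in 17.5% of Cxcl9-positive cells, and its ratio of -1.0 lay at the limit and fell short of it under several alternatives, such as -0.98 with TMM scaling. Stmn1, a microtubule regulator, was present in 3.23% and 20.3% (-3.37, -3.87 to -0.18). Ribosomal protein genes gave no call in either direction among 10 examined.

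To set sequence beside these differences, 5 promoters are shown: 3 of genes lower in members with an interferon-type motif (Gbp2b, Calhm6 and Serpina3g) and 2 of genes higher in members with the core of the hypoxia response element (Slc16a3 and Bnip3). They were picked after the values and the matches were seen. Each is the 250 bases before the transcription start in RefSeq on GRCm38.p6, read 5′ to 3′ on the strand of the gene, with the matches in capitals. The motifs searched on both strands were the gamma-activated site TTCNNNGAA, the core of the interferon-stimulated response element (GAAA, any 2 bases, GAAA) and the hypoxia core ACGTG. The coordinates are chr3:142594597-142594846 (plus) for Gbp2b, chr10:34127973-34128222 (minus) for Calhm6, chr12:104235897-104236146 (plus) for Serpina3g, chr11:120948817-120949066 (plus) for Slc16a3 and chr7:138909507-138909756 (minus) for Bnip3.
Gbp2b: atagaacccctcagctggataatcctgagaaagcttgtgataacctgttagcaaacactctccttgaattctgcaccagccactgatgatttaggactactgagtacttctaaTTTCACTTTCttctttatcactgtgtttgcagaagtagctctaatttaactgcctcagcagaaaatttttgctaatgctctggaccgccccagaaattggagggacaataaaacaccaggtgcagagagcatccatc
Calhm6: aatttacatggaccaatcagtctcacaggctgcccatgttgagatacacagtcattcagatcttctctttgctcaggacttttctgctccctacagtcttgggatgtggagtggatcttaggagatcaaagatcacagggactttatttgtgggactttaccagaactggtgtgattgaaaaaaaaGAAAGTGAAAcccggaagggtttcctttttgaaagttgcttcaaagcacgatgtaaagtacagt
Serpina3g: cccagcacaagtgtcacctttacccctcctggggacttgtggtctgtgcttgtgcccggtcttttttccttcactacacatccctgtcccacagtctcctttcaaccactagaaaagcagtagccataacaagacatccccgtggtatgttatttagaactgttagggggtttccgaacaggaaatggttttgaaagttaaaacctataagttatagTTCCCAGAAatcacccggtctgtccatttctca
Slc16a3: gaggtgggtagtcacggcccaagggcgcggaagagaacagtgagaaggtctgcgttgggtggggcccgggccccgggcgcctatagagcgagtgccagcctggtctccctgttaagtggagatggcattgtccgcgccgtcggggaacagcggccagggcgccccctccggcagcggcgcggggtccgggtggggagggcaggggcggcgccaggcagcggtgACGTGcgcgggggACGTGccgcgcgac
Bnip3: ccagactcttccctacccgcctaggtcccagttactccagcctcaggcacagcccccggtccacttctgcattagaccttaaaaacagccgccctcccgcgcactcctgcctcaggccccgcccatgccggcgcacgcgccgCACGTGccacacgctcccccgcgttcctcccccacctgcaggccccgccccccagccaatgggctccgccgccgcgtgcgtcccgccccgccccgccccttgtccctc

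A single match of the response element core lay in the Gbp2b promoter (on the opposite strand) and in the Calhm6 promoter, a single gamma-activated site in the Serpina3g promoter, and 2 matches of the hypoxia core in each of the other promoters; in Bnip3 these overlap on the opposite strands of the same bases. Over 5922 examined genes with a promoter in the table, the response element core occurred in 3.14%, TTCNNNGAA in 5.84% and ACGTG in 23.6%. Of these 5922 genes, 368 were called lower in members with the same sign in the 3 hashtags, and their shares were 8.7%, 10.3% and 21.2%. Another 244 were called higher in the same way, with shares of 3.69%, 6.15% and 22.5%. Both interferon-type motifs were more frequent among the lower genes than among all examined genes, while the hypoxia core was not more frequent among the higher genes. The lower genes come from a comparison with cells chosen in part for Cxcl9, a gene of the interferon-gamma response. These differences in share were not tested. The AP-1 motif TGANTCA occurred in 4.29% of examined, 9.02% of higher and 5.43% of lower genes. Spp1, which was higher, also held a match of the response element core, and the Cxcl9 promoter held none of these motifs. A match says only that the letters are there. Promoters of Arg1, Fn1 and Dnase1l3 were not in the table.

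Arginine and polyamine genes did not move with Arg1 as a list: 2 of 13 examined were higher, 3 lower, and the median was 0.00. Arg2, the mitochondrial arginase, was present in 9.68% of members and 5.08% of Cxcl9-positive cells (1.75, 1.85 to 2.75). Nos2, the nitric oxide synthase that competes for arginine, was present in 8.06% of members, 7.91% of Cxcl9-positive cells, 0.505% of cells with neither gene and 30.4% of cells with both. Its ratio of -1.07 turned to 0.09 when only cells with a hashtag call were used. Odc1, ornithine decarboxylase, gave 0.24 and was not called. Ass1, which rebuilds arginine from citrulline, was lower at -1.60 (-3.64 to -1.85), and Amd1 of polyamine synthesis at -1.56 (-2.80 to -1.12).

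The NR4A transcription factors, after which the knockout of this series is named, were read in these macrophages as well. Nr4a1 was present in 62.9% of members and 44.1% of Cxcl9-positive cells, with a ratio of 1.08 in the pooled sums and values from -0.30 to 1.78 in the 3 hashtags; Nr4a2 gave 0.35 and Nr4a3 -0.11. Since the genotypes of the hashtags are not given, these levels check no label.

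Against the 198 cells with neither Arg1 nor Cxcl9 the differences were fewer. Of the same 7566 genes, 907 (12%) were called, 254 (3.36%) higher and 653 (8.63%) lower in members. With the same sign in the 3 hashtags there were 529 (6.99%), 126 (1.67%) higher and 403 (5.33%) lower, and the median over all was -0.07. The members are the same cells as in the comparison above, so the values are given side by side and no agreement between them is counted. Spp1 was higher at 2.99 (1.92 to 4.41), Fn1 at 2.64 (1.54 to 3.48), Vcan at 2.1 (1.54 to 3.09) and Cd9 at 2.19 (1.38 to 2.46). Cd9 was present in 48.4% of members and 20.2% of cells with neither gene, and also in 75.5% of melanoma-gated barcodes at 290 CPM. Of the matrix list 7 of 16 were higher and none lower (median 0.94), and of the hypoxia list 5 of 27 were higher and none lower (0.66), Slc16a3 among them at 1.43 (1.21 to 1.59). F13a1 (0.56), Ccl6 (0.71) and Ccl9 (0.93), which set members apart from Cxcl9-positive cells, were not called here. Of the list of alternative activation and scavenging 2 of 12 were higher and 3 lower (median 0.17). Of the classical monocyte list 3 of 16 were higher and 1 lower (0.55). Of the chemokine list 2 of 16 were higher and none lower (0.09). These 3 lists thus set members apart mainly from the Cxcl9-positive cells.

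Further named genes in this comparison were surface and signalling genes. Bst1, an ectoenzyme of myeloid cells, was present in 61.3% of members and 24.2% of cells with neither gene (1.70, 1.11 to 1.63). Ptgs2, the prostaglandin-producing cyclooxygenase 2, gave 1.37 (0.84 to 2.21), Trem1 gave 1.33 (0.43 to 2.29) and Il7r gave 1.46 (0.33 to 1.47), the last also present in 33.1% of T cell-gated barcodes. Emp1 gave 1.45, but 0.91 without A0306, and Mmp19 gave 1.37, but 0.68 without it. Mmp12 gave 3.05, 2.23 without its highest member, and 0.69 to 4.13 in the 3 hashtags. It was present in similar shares, 11.3% of members and 9.09% of cells with neither gene. The marker Chil3 was not called here, though it gave 1.34 at 10 counts for presence and 1.02 without A0306.

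The lower side held class II and cell cycle genes and few interferon-gamma genes. Of 10 class II genes 7 were lower, all in the 3 hashtags (median -1.27), with Cd74 at -1.33 (-1.96 to -0.84). Of 23 interferon-gamma genes only 3 were lower and 1 higher (median -0.15), with Cxcl10 at -0.05 and Cd274 at 0.27. Calhm6 was lower at -2.05 (-4.44 to -0.67). Mgl2, a lectin of dendritic cells and macrophages, was lower at -3.12 (-4.81 to -2.48), and Tmem176b was present in 14.5% of members against 50% (-2.14). Xcr1, the receptor of cross-presenting dendritic cells, was present in no member and in 5.05% of cells with neither gene, beside summed dendritic cell markers of 4.32 and 66.0 CPM. The part of dendritic cells in these differences was not tested. Cell cycle genes were lower for 9 of 16 (median -1.28).

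The 23 cells with both Arg1 and Cxcl9 had some features of each side. Their median depth was 59470 counts, above that of members. H2-Aa and Cd74 were present in all 23, and Cd274 in 82.6%, against 32.3% of members. F13a1 was present in 60.9% (members 82.3%), Msr1 in 95.7% (95.2%) and Bnip3 in 60.9% (43.5%). Fn1 was present in 17.4%, and Vcan, Ednrb and Ccl24 in none, which allows up to 13%. Of the 23 cells, 10 had hashtag A0303.

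Members differed among themselves in C1q, whose genes belong to the gate. At least 2 of the 3 C1q genes were present in 43 members (69.4%), none in 16 (25.8%) and 1 in the remaining 3. By the gate, a member without C1q had to have at least 3 of the other 4 macrophage genes. Median depths were 52096 and 41353 counts, and median hashtag counts were 43 and 875. Of 7566 genes, 2874 (38.0%) were called, 1870 (24.7%) higher and 1004 (13.3%) lower in C1q-positive members (median 0.12). There were 1750 (23.1%), 1269 (16.8%) higher and 481 (6.36%) lower, of the same sign in the 2 hashtags with at least 5 cells on each side, A0301 and A0306. The 16 cells held 647598 counts in sum and the 43 cells 2699876.

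Members without C1q carried the monocyte genes. Of 16 classical monocyte genes 7 were lower in C1q-positive members and none higher (median -0.89). Fn1 was present in 93.8% of members without C1q and 51.2% of C1q-positive members (6330 against 1960 CPM, -1.69), Ccr2 in 93.8% and 51.2% (-1.63), Chil3 in 62.5% and 20.9% (-1.62) and Vcan in 56.2% and 14% (-2.65). Inflammatory genes were lower for 10 of 16 in C1q-positive members and higher for none (median -1.39), with Il1b, interleukin 1 beta, at -2.23 (-2.52 to -2.16) and present in 51.2% against 81.2%. Thbs1 gave -2.25 and Trem1 -1.93. The hypoxia list had 9 of 27 lower and 1 higher (median -0.58). Type I interferon-stimulated genes were lower for 12 of 15, with 1 higher (median -1.5), but in only 4 was the sign the same in both hashtags. Arg1 itself, part of the rule, was 7560 CPM without C1q and 2160 with it.

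In the pooled sums, C1q-positive members had more higher than lower genes of macrophage maturation and lipid handling. Maturation genes were higher for 8 of 14 and lower for none (median 1.15). Lipid handling genes were higher for 9 of 16 and lower for none (1.14, or 0.96 when genes absent from the other side are put at their bound). Trem2, a called gene of both lists, fell to 0.78 after thinning. For genes with no count in the 16 cells a fold is given only as a bound, against a floor of 30 counts over the group, which stands for 3 molecules at an assumed 10 counts each. These bounds do not cover the sampling of cells. Ccl8 was at least 33.1-fold higher and Mmp12 at least 19.4-fold, but 1 member held 43% and 43.2% of their counts. Mmp12 was present in only 7 C1q-positive members (16.3%), a share that its absence from the 16 other cells still allows (up to 18.8%). Fcgrt, the neonatal Fc receptor, was at least 6.4-fold higher and was present in 30.2%. Cebpa, a myeloid transcription factor, was present in 20 of 43 (46.5%) and in none of 16, which allows up to 18.8%, and was at least 3.03-fold higher. Lyve1 and Cd5l, genes of tissue-resident macrophages, were at least 8.82-fold and 5.52-fold higher, but 1 member held 67.7% and 70.4% of their counts. They were present in only 5 and 4 C1q-positive members (11.6% and 9.3%), shares that their absence from the 16 other cells still allows (up to 18.8%). Mrc1 gave 1.19 (1.12 to 1.38), but 0.97 without its highest cell, 0.80 with per-cell means and 0.79 after thinning. Its thinned share was no higher, at 60.5% of C1q-positive members and 68.8% of members without C1q. In the pooled sums MHC class II genes did not follow this split: 2 of 10 were lower and none higher, with H2-Aa at -0.20. This depended on the setting, since H2-Ab1 and Cd74 were higher at 1.2 and 1.14 with hashtag-called cells only. Thinned, H2-Aa was present in 65.1% of C1q-positive members and 43.8% of members without C1q. Cd80 went the other way, at 11.6% and 43.8%.

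Fn1 and Ccl8 did not occur together in any member. This pattern was noticed in the values and is a description. Fn1 was present in 39 members, the chemokine gene Ccl8 in 11, and neither in 12. None of the 39 Fn1-positive members had 5 counts of Ccl8 (up to 7.69%), and 37 had none at all, while 9 of the 11 Ccl8-positive members had no Fn1 count. Median depths were 45670 counts in Fn1-positive, 96303 in Ccl8-positive and 40025.5 in the remaining members, so the Ccl8-positive cells lacked Fn1 at the greater depth. The 11 Ccl8-positive members came from all 6 hashtags (4, 1, 2, 1, 1 and 1 from A0301 to A0306) and 1 without a call.

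The genes beside them formed contrasting sets. In Fn1-positive members Ccr2 was present in 82.1%, Spp1 in 69.2%, Chil3 in 48.7% and Vcan in 43.6%. In the 11 Ccl8-positive members Ccr2 was present in 1 (9.09%), Spp1 in 2 (18.2%) and Chil3 and Vcan in none, while C1qa, C1qb and C1qc were present in all 11, Pf4 in 90.9% and Mrc1 in 72.7%. Lyve1, the hyaluronan receptor, was present in 4 of these 11 and in 1 of the 39. All 5 Lyve1-positive members also had Ednrb. F13a1 did not separate the sets, at 89.7% and 81.8%. Arg1, a gene of the rule, had a median of 2950 CPM in Fn1-positive and 1320 in Ccl8-positive members, with ranges that overlapped.

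**Figure D4:**
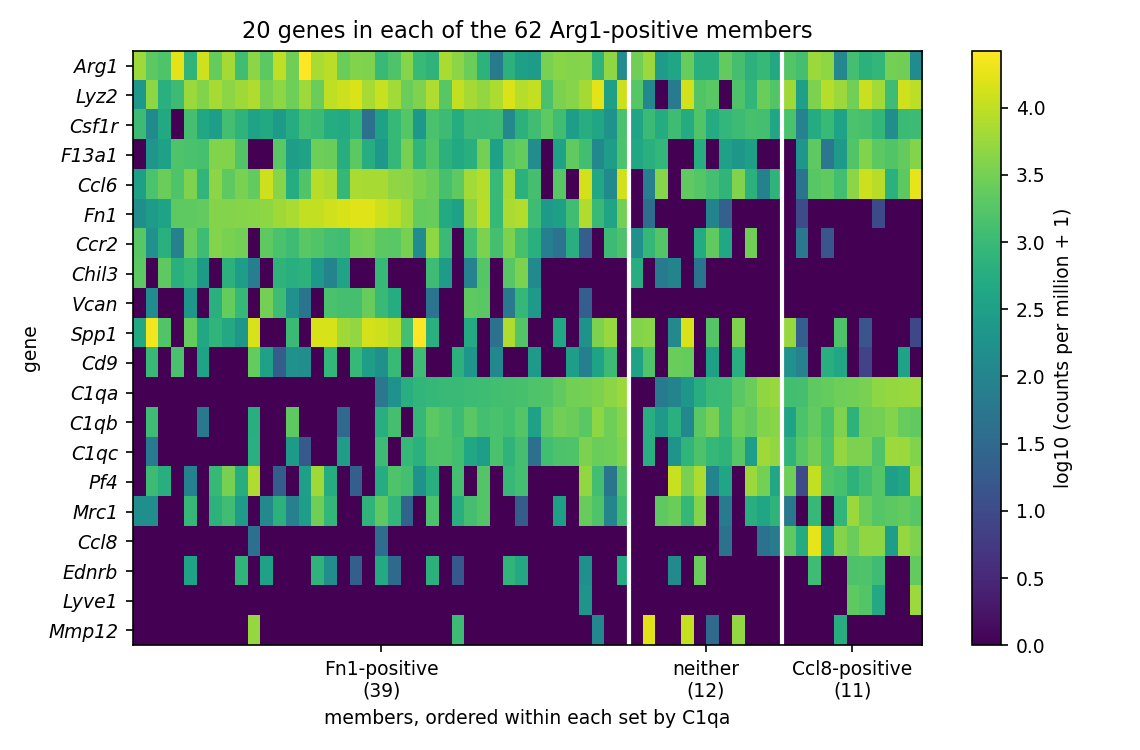
Level of 20 genes (rows) as log10 of CPM plus 1 (colour scale) in each of the 62 members (columns), in 3 sets: 39 Fn1-positive, 12 with neither Fn1 nor Ccl8, and 11 Ccl8-positive, ordered by C1qa within each set. Ccr2, Chil3, Vcan and Spp1 lie mainly in the Fn1-positive set, and C1qa is present in 48.7% of that set and in all 11 Ccl8-positive members.

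The same division was present in macrophages outside the Arg1-positive set. Among cells with neither gene, Ccl8 was present in 2.08% of 48 Fn1-positive and 39.3% of 150 Fn1-negative cells, and among Cxcl9-positive cells in 6.25% of 16 and 46.6% of 161. Ccr2 was present in 91.7% against 35.3% and in 93.8% against 31.7%, and C1qa in 50% against 82.7% and 85.1%. The Fn1 and Ccl8 contrast was thus found in these 3 sets. Among the cells with both genes, Ccl8 was present in 25% (0.631 to 80.6) of only 4 Fn1-positive cells. It was present in 57.9% (33.5 to 79.7) of their 19 Fn1-negative cells, and these numbers are too small to place that set. The share of cells on the Fn1 side was 62.9% of members, 24.2% of cells with neither gene and 9.04% of Cxcl9-positive cells. Spp1 was present in 69.2% (52.4 to 83) of Fn1-positive members, 33.3% (20.4 to 48.4) of Fn1-positive cells with neither gene and 25% (7.27 to 52.4) of Fn1-positive Cxcl9-positive cells. Cells are not replicates, and 16 of the 39 Fn1-positive members had hashtag A0306, where Spp1 was most frequent among the hashtags with at least 10 members, so this difference was not tested.

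**Figure D5:**
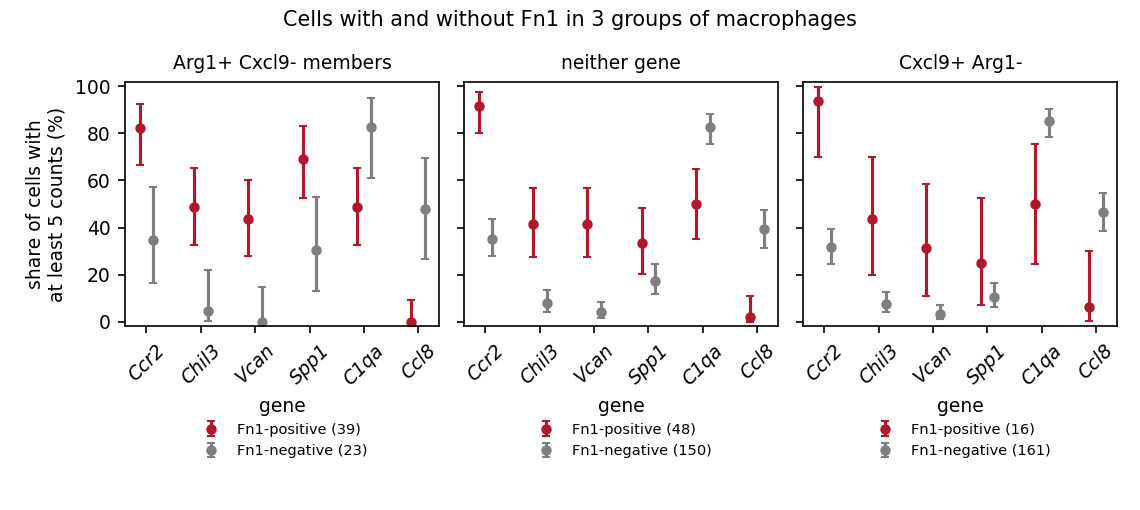
Share of cells with at least 5 counts (%, vertical axis) of 6 genes in Fn1-positive (red) and Fn1-negative (grey) cells of the members, the cells with neither Arg1 nor Cxcl9 and the Cxcl9-positive cells, with 95% exact binomial intervals and cell numbers in the legends. Ccl8 was present in at most 6.25% of Fn1-positive cells in all 3 panels, and Spp1 in Fn1-positive cells was highest among members at 69.2%. The cells with both Arg1 and Cxcl9 are not shown.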

How the data were processed

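The authors deposited 1 table of whole-number counts for 27635 genes in 12016 barcodes and 1 of hashtag counts, 629041564 mRNA counts in all. Per the submitters' processing notes, cutadapt 2.10, Bowtie2 2.3.4.1 and 2.4.2, R 3.5.3 and GRCm38 were used. No source used here says whether counts are reads or molecules. The median nonzero count was 7, so counts were not taken as molecules.

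The deposited counts were filtered and gated as given in the report, with Python 3.11.15, numpy 2.4.6, pandas 2.3.3 and scipy 1.17.1. Hashtags were called by a log likelihood margin of 3 over the next best of 12 modelled tags. A0301 made up 42.3% of background hashtag counts, and 4 members had no call. Comparisons are ratios of summed counts scaled to CPM, with no test. The planned 20 cells per hashtag and set were reached by no hashtag, so 10 (5 for the C1q split) were used, chosen after the cell numbers were seen. Scrublet in scanpy 1.11.5 called 1 barcode at its threshold of 0.644, so the highest 5% of scores were left out only as an alternative. Other alternatives were edgeR 4.0.16 TMM scaling (R 4.3.3), per-cell means, other filters and added counts, thinning, stricter gates and leaving out each hashtag. Named genes were, per comparison, the 12 highest and 12 lowest called genes with the same sign in every hashtag used and at least 50 CPM over the gate, besides the markers and genes of 21 lists. Members and lists were chosen with earlier results of these data known. The scripts were tested on simulated data. A few single-gene values are not reported here.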

Additional observations from a re-analysis of the deposited data

How the results depend on the processing

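The number of members ranged from 57 to 67 and their share of gated macrophages from 13.5% to 15.4% over 7 alternatives, inside the interval of the share as reported, and the share in each hashtag stayed inside its interval under a stricter call margin and a minimum of hashtag counts. The counts of genes past 2-fold depended on low counts. Against Cxcl9-positive cells the 1348 genes became 5165 with no filter, 881 with 50 counts added and 779 with the same sign required in the hashtags, and 1361 to 1585 when each hashtag was left out in turn. Against cells with neither gene the 907 genes became 4200, 448 and 529 in the same order, 582 without the highest cell of each gene, and 941 to 1238 by hashtag left out. In the C1q split the 2874 genes became 5308, 822 and 1750, 1871 after thinning, and 2861 to 3479. Without the highest cell of each gene, the 1348 genes against Cxcl9-positive cells became 947, and the 512 higher among them became 279. The share of higher genes among those called thereby moved from 38.0% to 29.5% in that comparison. Against cells with neither gene the share moved from 28.0% to 14.9%, and in the C1q split from 65.1% to 87.2%. Scaling by TMM gave 1337, 895 and 2899 genes. Of single genes, Nos2 turned to 0.09 against Cxcl9-positive cells with hashtag-called cells only. In the C1q split Inhba turned to 0.08 in the same setting, and Ccl24 to 0.14 at 10 counts for presence, -1.54 to 0.44 (without A0306) as each hashtag was left out, and 0.68 without its highest cell. The cause was not tested. Same-sign and highest-cell settings were chosen after seeing the data. No paired test was run: the hashtags are samples of unknown genotype and were not treated as replicates. Both sets of each comparison occur together in the hashtags used, and ratios within those hashtags are given in the report.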
